A study of Drosophila melanogaster with 10 samples.

Results

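The genes described here are the transferrins Tsf1 and Tsf3, the ferritin subunits Fer1HCH and Fer2LCH, the metallothioneins MtnA, MtnB, MtnC and MtnD, and the metal transporter Mvl, measured by RNA-seq in the adult Drosophila ventral nerve cord (VNC, the fly counterpart of the spinal cord). They were chosen by name, and all 9 were found among the 14352 genes of the count table by FlyBase ID or gene name. The injured group was 5 libraries from w1118 flies whose 6 legs, 2 wings and head had been severed 5 hr before dissection and which then lay on a 2% agar plate at 98% humidity. The uninjured group was 5 libraries from w1118 flies held intact without food for 5 hr in vials of 2% agar. By the labels, flies of both groups were 3 to 10 days old, about 30 males and 30 females, and each library pooled 60 to 80 VNCs. The paper's RNA-seq methods differ from the labels, with a narrower age range and fewer VNCs per replicate. Severing, the loss of the head and the different housing cannot be told apart in this design.

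Iron, copper and zinc are needed as enzyme cofactors and are toxic in excess, so animals carry them bound to protein. Transferrins carry iron outside cells, and Tsf1 is the main iron carrier of fly hemolymph. Ferritin is a shell of heavy and light chains that stores iron, and in insects much of it passes through the secretory pathway. Metallothioneins are small cysteine-rich proteins that bind copper, cadmium and zinc, and their genes are switched on by the metal-responsive factor MTF-1. Mvl is the fly member of the NRAMP family, which moves iron and other divalent metals across membranes.

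Tsf3, MtnD and Mvl were higher in injured VNCs, by 7.52-fold, 6.03-fold and 1.49-fold, and MtnA was lower by 37.2%. Tsf1, Fer1HCH, Fer2LCH and MtnC did not pass the test, and MtnB was too low to enter it. A gene was called at an adjusted p under 0.01 in edgeR's quasi-likelihood test with Benjamini-Hochberg adjustment over the 9365 genes whose mean deposited TPM was above 2 in at least 1 group. Of the 8 genes tested here, 3 were called higher, where 7.55% of all genes tested were, and 1 was called lower, where 6.13% were. For either direction the share over all genes was 13.7%. The genes were chosen with earlier results of these data known, so these shares are background and not a test of the group. The injured and uninjured libraries did not overlap in CPM, counts scaled to the library total, for 4 of the 8 genes tested here. The share over all genes tested was 16.5%. The libraries of MtnB, which was not tested, overlapped. The median log2 fold change of the 8 was 0.107, against -0.000943 over all genes tested.

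**Figure D1:**
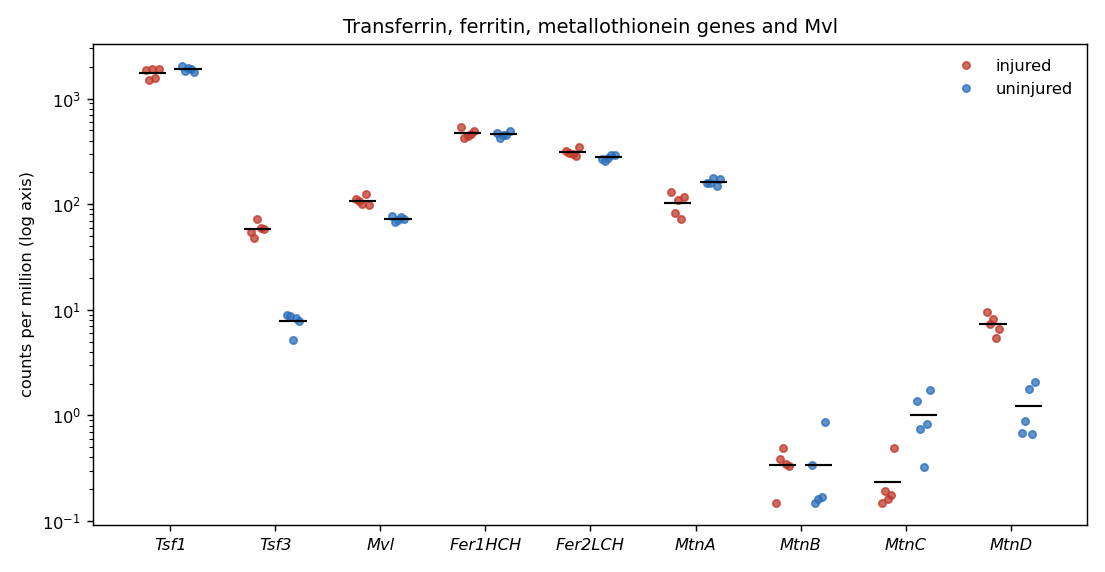
CPM on a log axis for each of the 9 genes in each library, injured on the left of each pair and uninjured on the right, with a black bar at the mean of 5 libraries. Tsf3, Mvl and MtnD lay higher and MtnA lower in every injured library, while MtnB and MtnC lay near the lowest count the table holds.

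Library totals were 5146470 to 6625705 counts in injured and 5763891 to 6640492 in uninjured libraries. The 12 neuronal markers listed for this tissue summed to 13989 to 16813 CPM in injured and 13435 to 17501 CPM in uninjured libraries, and edgeR called none, with 2 higher and 0 lower at an unadjusted p under 0.05. The 12 glial markers summed to 5308 to 8527 CPM in injured and 7022 to 9996 CPM in uninjured libraries, with 4 called lower (repo, wrapper, Indy and Mdr65), 1 higher (moody) and a median log2 fold change of -0.35. Markers of tissues that lie against the VNC were also present, with fat body markers summing to 6358 to 7843 CPM in injured and 9077 to 13974 CPM in uninjured libraries. Hemocyte markers summed to 642 to 836 CPM in injured and 893 to 1418 CPM in uninjured libraries, and 5 of the 9 tested were called lower. Gut markers summed to 103 to 184 CPM in injured and 186 to 1562 CPM in uninjured libraries, and 6 of the 11 tested were called lower. The 1562 CPM was uninjured library 2 alone, and the next highest was uninjured library 3 at 435 CPM. Muscle markers differed from these, summing to 652 to 6170 CPM in injured and 1324 to 1798 CPM in uninjured libraries. Of the 12 muscle markers tested 1 was called higher (flr) and 0 lower, with a median log2 fold change of 0.79. The range of flr was 51.5 to 55.3 CPM in injured and 32.2 to 34.9 CPM in uninjured libraries, without the wide spread of the muscle sum in injured libraries. At an unadjusted p under 0.05 in edgeR, 5 muscle markers were higher and 0 lower. Of the 16 fat body markers tested 3 were called lower and none higher, with 6 lower and 0 higher at an unadjusted p under 0.05. The median log2 fold change of the fat body list was -0.05. Its sum was made up mostly of apolpp, FASN1 and the yolk protein genes. The means of apolpp and the yolk protein genes were lower in injured VNCs. FASN1 was at 1641 CPM in injured and 1796 CPM in uninjured VNCs, a log2 fold change of -0.13 that was not called. Lsp1alpha and Fbp2 had log2 fold changes of 2.34 and 2.23 that were not called either. No marker of these lists was at a count of 1 in all 10 libraries. In whole VNCs, fewer cells of a type and less RNA per cell cannot be told apart.

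Levels were compared between genes only per length, as RPKM, which divides a gene's reads by the length of its longest transcript and by the mapped reads of the library. Tsf1 was the highest of the 9 in both groups, at 402 ± 54.0 RPKM in injured and 456 ± 29.1 RPKM in uninjured VNCs (SD, n = 5 each). It ranked 51st of all genes in injured and 50th in uninjured VNCs. In injured VNCs the order below it was Fer1HCH at 185 RPKM, Fer2LCH at 141 RPKM, MtnA at 96.2 RPKM, MtnD at 17.8 RPKM, Tsf3 at 16.1 RPKM, Mvl at 14.8 RPKM, MtnC at 0.565 RPKM and MtnB at 0.485 RPKM. In uninjured VNCs it was Fer1HCH at 186 RPKM, MtnA at 159 RPKM, Fer2LCH at 131 RPKM, Mvl at 10.4 RPKM, MtnD at 3.00 RPKM, MtnC at 2.53 RPKM, Tsf3 at 2.24 RPKM and MtnB at 0.496 RPKM. MtnD, Tsf3 and Mvl, which stood next to each other in injured VNCs, overlapped in their libraries, as did MtnD, MtnC and Tsf3 in uninjured VNCs. Tsf3 moved to rank 3237 in injured VNCs, against rank 8925 in uninjured VNCs, and MtnD to rank 2931, against rank 8316.

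Tsf1 showed no called difference. Its CPM in the injured libraries were 1875, 1507, 1894, 1577 and 1892, and in the uninjured libraries 2039, 1836, 1956, 1908 and 1789. Injured libraries 2 and 4 were below every uninjured library and the other 3 lay among them. The log2 fold change was -0.12 (SE 0.08, 95% interval -0.31 to 0.06, adjusted p = 0.313). Tsf1 is made in the fat body, whose marker list is given above, and the part of that tissue in its level was not tested.

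Tsf3, a transferrin family gene less well understood than Tsf1, changed the most of the 8 tested genes. Its counts were 369, 250, 447, 343 and 349 in the injured libraries and 52, 59, 32, 50 and 45 in the uninjured libraries, which are 58.6 ± 8.93 CPM in injured and 7.78 ± 1.53 CPM in uninjured VNCs (SD, n = 5 each). The lowest injured library, at 48.2 CPM, was well above the highest uninjured library, at 8.85 CPM. The log2 fold change was 2.91 (SE 0.15, adjusted p = 2.47e-08), and it lay between 2.41 and 2.96 under every alternative run. The ratio of Tsf1 to Tsf3 in RPKM was 21.8 to 28.6 in injured and 175 to 317 in uninjured libraries, so that the lower ratio in injured VNCs came with Tsf3 and not with a called change of Tsf1.

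In the release 6 annotation, a later build than the counts, Tsf3 lies wholly within CG15706 on the opposite strand, and the kit did not mark strand, so reads of these genes cannot be told apart where their exons overlap. CG15706, named here because of this position, had 23.2 ± 3.64 CPM in injured and 31.9 ± 2.89 CPM in uninjured VNCs (SD, n = 5 each). It was called lower, at -0.46 on the log2 scale (adjusted p = 0.00842, SE 0.11), the direction opposite to that of Tsf3. The third transferrin, Tsf2, a component of septate junctions, had 60.7 CPM in injured and 53.8 CPM in uninjured VNCs. Its groups did not overlap, but its log2 fold change of 0.17 was not called (SE 0.06, adjusted p = 0.0582).

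Mvl had 111, 107, 99.4, 125 and 98.3 CPM in the injured libraries and 76.8, 68.5, 70.7, 75.4 and 72.4 CPM in the uninjured libraries. The groups did not overlap, and the change was small beside that of Tsf3. Mean CPM was 108 ± 10.9 in injured and 72.8 ± 3.37 in uninjured VNCs (SD, n = 5 each), which differ by 0.57 on the log2 scale (adjusted p = 4.80e-05, SE 0.07). It was called under every alternative run, with log2 fold changes of 0.47 to 0.61.

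Neither ferritin subunit was called. Fer1HCH, the heavy chain that oxidises iron for storage, had 541, 426, 444, 461 and 491 CPM in the injured libraries and 470, 426, 453, 450 and 495 CPM in the uninjured libraries. Its groups overlapped almost fully, and its log2 difference of 0.04 (SE 0.07, 95% interval -0.11 to 0.20, adjusted p = 0.694) rested on injured library 1, without which it was -0.02 (adjusted p = 0.829, against 0.525 to 0.972 over all libraries left out in turn). Fer2LCH, the light chain, had 316, 303, 301, 287 and 349 CPM in the injured libraries and 268, 254, 274, 295 and 293 CPM in the uninjured libraries. Injured library 4 lay below 2 of the uninjured libraries and the other 4 injured libraries lay above all of them. Its log2 fold change was 0.17 (SE 0.06, 95% interval 0.03 to 0.31, adjusted p = 0.0735).

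The heavy and light chains assemble together, so their ratio was taken in each library. Fer1HCH over Fer2LCH in RPKM was 1.47, 1.21, 1.27, 1.38 and 1.21 in the injured libraries and 1.51, 1.44, 1.42, 1.31 and 1.45 in the uninjured libraries. The ranges overlapped, with means of 1.31 ± 0.117 in injured and 1.43 ± 0.0712 in uninjured VNCs (SD, n = 5 each). In release 6 the ferritin genes overlap each other on opposite strands, so reads from the shared stretch cannot be assigned to either. Fer3HCH, the mitochondrial ferritin, was below the filter, at 0.494 CPM in injured and 0.956 CPM in uninjured VNCs.

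**Figure D2:**
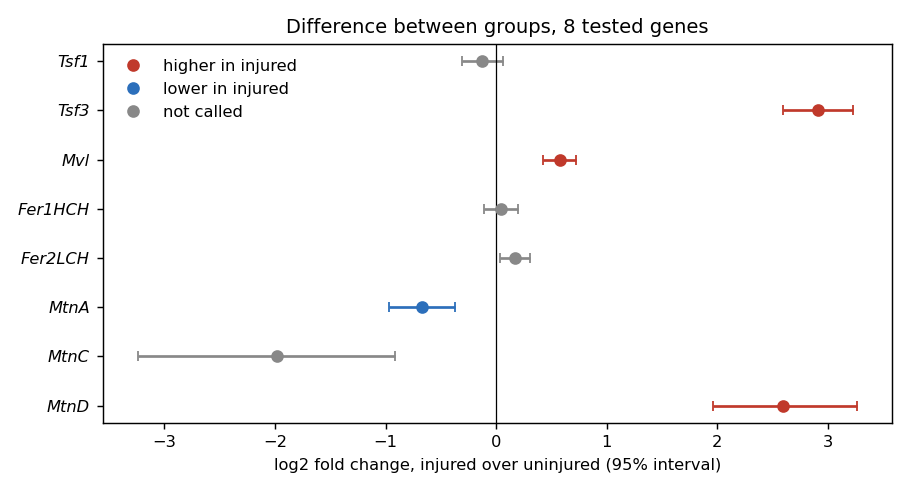
Log2 fold change, injured over uninjured, of the 8 tested genes, with bars for the 95% interval and colour for the call at an adjusted p under 0.01. Tsf3 and MtnD stand at 2.91 and 2.59, Mvl at 0.57 and MtnA at -0.67, and the interval of MtnC, from -3.24 to -0.91, is the widest shown.

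The metallothioneins did not move together. MtnA, the most abundant of the 4 measured, had 132, 82.0, 110, 71.6 and 116 CPM in the injured libraries and 159, 158, 176, 149 and 173 CPM in the uninjured libraries. Every injured library lay below every uninjured library. The injured libraries were also more spread, with a coefficient of variation of 24.2% against 6.87% in uninjured libraries. MtnA averaged 102 ± 24.8 CPM in injured and 163 ± 11.2 CPM in uninjured VNCs (SD, n = 5 each), which gave -0.67 on the log2 scale (adjusted p = 0.0033, SE 0.14). It was called under every alternative, with log2 fold changes of -0.79 to -0.57, but in some only just under the threshold of 0.01. Its adjusted p was 0.00993 with limma on log2(TPM + 0.5) and 0.0099 in edgeR without uninjured library 3. Fat body, hemocyte and gut marker sums were lower in injured libraries too, unlike the muscle sum, whose groups overlapped. The glial sum averaged 6505 CPM in injured and 8132 CPM in uninjured VNCs, with overlapping groups. Of the 12 glial markers 4 were called lower, 1 higher and 7 not called. The part of these tissues and of glia in the level of MtnA was not tested.

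MtnD moved in the other direction. Its counts were 64, 38, 50, 31 and 40 in the injured libraries and 4, 6, 11, 4 and 12 in the uninjured libraries. The lowest injured library held more counts than the highest uninjured library. It averaged 7.39 ± 1.54 CPM in injured and 1.22 ± 0.660 CPM in uninjured VNCs (SD, n = 5 each), with a difference of 2.59 on the log2 scale (adjusted p = 3.12e-05, SE 0.30), which lay between 2.28 and 2.86 under every alternative. In release 6 its neighbours are MtnE, a further metallothionein, and Stat92E, the transcription factor of the JAK/STAT pathway. MtnB, MtnC and MtnD are short genes related in sequence, and how reads matching more than 1 of them were counted is not known here. MtnE and MtnF were not analysed here, because no row of the count table was matched to them.

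MtnC had 1, 1, 1, 1 and 3 counts in the injured libraries and 8, 5, 2, 5 and 10 counts in the uninjured libraries. The groups overlapped through injured library 5 and uninjured library 3. No count in the table is below 1, so a 1 may stand for fewer reads. The 7 counts in injured against 30 in uninjured libraries gave a ratio of 0.239 (95% exact interval 0.0886 to 0.555, counting error only). The log2 fold change was -1.98 (SE 0.54, adjusted p = 0.0137) and was not called. MtnC entered the test only through the uninjured group, where it is higher, so the filter itself favoured this direction, and edgeR's filterByExpr did not admit it. It passed without injured library 5 (log2 fold change -2.42, adjusted p = 0.00969) and without uninjured library 3 (-2.21, adjusted p = 0.00421), over a range of 0.00421 to 0.0348 as each library was left out. Gut markers were lower in injured VNCs as well, and their part in the level of MtnC was not tested.

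MtnB was the only one of the 9 below the filter. Its counts were 1, 2, 3, 2 and 2 in the injured libraries and 2, 1, 1, 1 and 5 in the uninjured libraries. CPM averaged 0.340 in injured and 0.337 in uninjured VNCs, and the 2-sided exact permutation test over every division of the libraries into 5 and 5 gave p = 0.976, where the smallest p it can give is 0.00794. With 10 counts in each group, the ratio was 1.02 with a 95% exact interval of 0.383 to 2.74 (counting error only). Libraries of both groups stood at the table's lowest count of 1, which may stand for fewer reads. The interval is therefore approximate, and a difference within it could not be judged at this depth.

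The opposite changes of MtnA and MtnD altered their shares in the summed RPKM of MtnA, MtnB, MtnC and MtnD. MtnE and MtnF, without a matched row, are not in this sum. The shares compare genes of unlike length, 0.274 kb for MtnD and 0.7 kb for MtnA. In uninjured libraries that of MtnD rests on 4 to 12 counts. The 4 genes summed to 158, 94.9, 125, 77.7 and 120 RPKM in the injured libraries and 161, 160, 175, 154 and 174 RPKM in the uninjured libraries. Injured library 1 lay among the uninjured libraries and the other 4 injured libraries lay below them. MtnD was 12.6% to 18.4% of the sum in injured and 1.06% to 2.88% in uninjured libraries. MtnA remained the larger, at 80.5% to 86.1% of the sum in injured and 94.0% to 97.3% in uninjured libraries. The RPKM of MtnA was 4.38 to 6.86 times that of MtnD in injured libraries and 32.7 to 91.4 times in uninjured libraries.

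**Figure D3:**
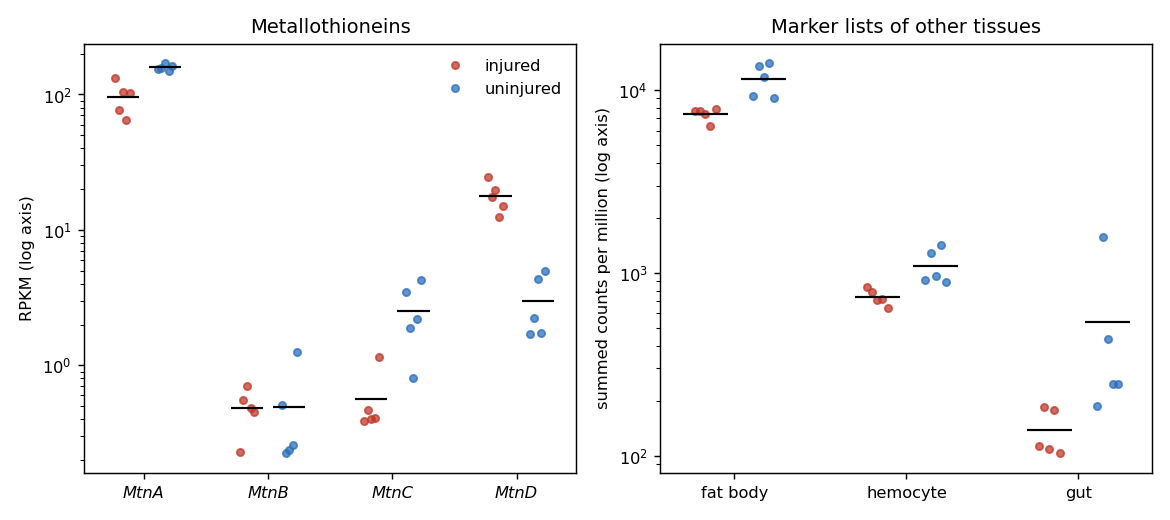
Left, RPKM of the metallothioneins in each library on a log axis; right, summed CPM of the fat body, hemocyte and gut marker lists on a log axis, each with injured to the left of uninjured and a black bar at the mean of 5 libraries. MtnD is higher and MtnA lower in every injured library, and each marker sum is lower in every injured library than in every uninjured library. For gut the groups nearly meet, at 184 CPM in injured library 2 and 186 CPM in uninjured library 1.

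For each called gene, the 3 genes with the most similar pattern were taken as those with the smallest root mean square difference of centred log2 CPM over the 10 libraries, a measure that the group difference itself dominates. For Tsf3 they were Rel, the NF-kappaB factor of the Imd pathway, at 0.27, Tig, the integrin ligand Tiggrin, at 0.28 and CG15046 at 0.28. For MtnD the closest were CG31955 at 0.24 and CG10126 at 0.28. For Mvl they were Su(Tpl), Hel89B and the leucokinin receptor gene Lkr, at 0.08 each. For MtnA they were pippin at 0.07, euc at 0.08 and nkt at 0.09.

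The other genes of iron, copper and zinc handling were read from lists drawn up from knowledge of the pathways. Of 15 iron handling genes 12 were tested, of which 2 were called higher, 2 lower and 8 not called, with a median log2 fold change of -0.06. Zip99C, which in flies moves iron into the secretory pathway where ferritin is loaded, had 107 CPM in injured and 48.8 CPM in uninjured VNCs, which is 1.13 higher on the log2 scale (adjusted p = 1.92e-07, SE 0.07). The mitochondrial iron importer mfrn was also higher, with a log2 difference of 0.35 (adjusted p = 0.00281, SE 0.07). Its call was lost with limma on log2(TPM + 0.5) (adjusted p = 0.0242), and without injured library 2 or 3 or uninjured library 2 or 4 (0.0116 to 0.0134). IRP-1B, an aconitase relative of the iron regulatory proteins, had 71.9 CPM in injured and 102 CPM in uninjured VNCs and was lower, at -0.51 (SE 0.06, adjusted p = 2.37e-05). FBgn0033764 was also lower, at -0.51 (SE 0.07, adjusted p = 2.04e-04). It was matched as nemy, although the deposited table gives that name to another ID. IscU, the scaffold for iron-sulfur clusters, had 353 CPM in injured and 362 CPM in uninjured VNCs and was not called, nor was the heme synthesis gene Alas, at 134 CPM in injured and 127 CPM in uninjured VNCs.

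All 11 copper handling genes were tested, of which 1 was called lower, none higher and 10 not called, with a median log2 fold change of -0.21. At an unadjusted p under 0.05 there were 2 higher and 5 lower, and DESeq2 and limma-voom called 0 higher. The lower one was Ctr1B, a copper importer, at 2.60 CPM in injured and 5.53 CPM in uninjured VNCs and -1.09 on the log2 scale (adjusted p = 0.00467, SE 0.24). Its call was lost without the filter on low values (adjusted p = 0.0141), and without injured library 3 or 5 or uninjured library 2 or 5 (0.0101 to 0.0134). The superoxide dismutase gene Sod1 had 171 CPM in injured and 213 CPM in uninjured VNCs and lay just outside the threshold, at -0.31 (SE 0.08, adjusted p = 0.0107). Sod3 was not called at -0.34 (SE 0.13, adjusted p = 0.0695). Among 16 zinc transporters 12 were tested, of which 2 were called higher, none lower and 10 not called, with a median log2 fold change of -0.15. At an unadjusted p under 0.05 there were 3 higher and 5 lower, and DESeq2 called 1 lower and limma-voom 0. ZnT63C, a zinc exporter, was higher, with a log2 difference of 0.46 (adjusted p = 4.92e-05, SE 0.06). So was ZnT86D, a zinc transporter of the same family, with a log2 difference of 0.36 (adjusted p = 0.00516, SE 0.08), a call lost with limma on log2(TPM + 0.5) (adjusted p = 0.0204), and without injured library 1, 2, 4 or 5 or uninjured library 1, 2 or 4 (0.0116 to 0.0187). Zip102B, at 137 CPM in injured and 144 CPM in uninjured VNCs, and foi, at 85.0 CPM in injured and 101 CPM in uninjured VNCs, were not called. Of these lists, Zip99C alone among the called genes was more than 2-fold higher.

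**Figure D4:**
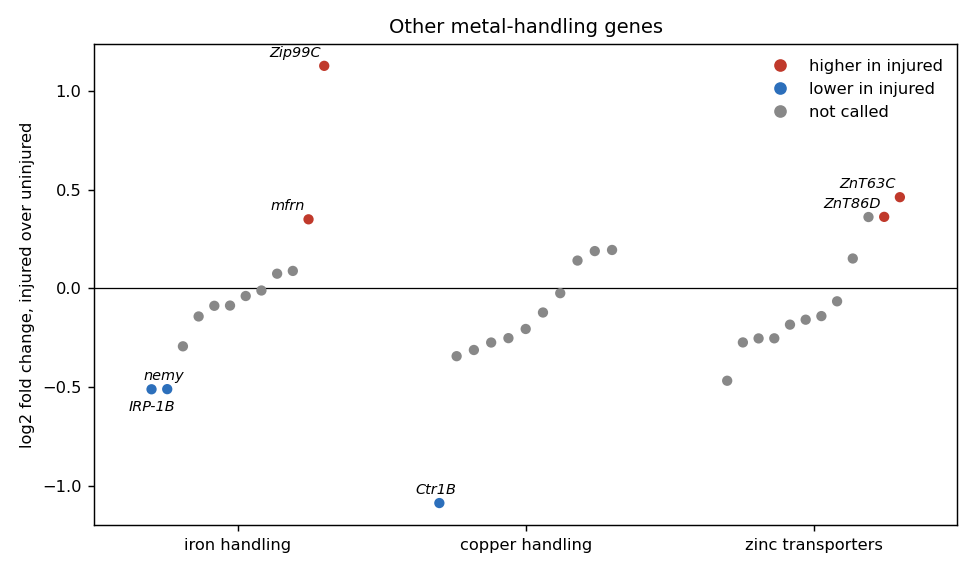
Log2 fold change, injured over uninjured, of every tested gene of the iron handling, copper handling and zinc transporter lists, sorted within each list, with called genes named. Zip99C stands highest, at 1.13, and Ctr1B lowest, at -1.09, and most genes of each list lie within 0.5 of 0.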

How the data were processed

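RNA of pooled w1118 VNCs was depleted of ribosomal RNA without poly(A) selection and sequenced as single 100 bp reads, by the labels all 10 libraries in the same lane. Per the study's methods, the authors aligned reads with BWA to fly genome release 5.57 and deposited estimated counts of each gene. These differed from whole numbers by at most 0.00063 and were rounded. The sources used here do not give tool versions. The values the authors deposited as TPM follow the RPKM formula and are called RPKM here where levels are printed. Tables of the authors' own fold changes, p-values and correlations were not used. Count columns carry a condition and a number from 1 to 5 that could not be matched to the sample titles, which use letters for uninjured and other numbers for injured samples, so libraries are numbered by column. The number of unused per-sample columns was 0.

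Of 14352 genes, 1 had a value that was not a number. A mean TPM above 2 in either group admitted 9365 genes to the test, run with edgeR 4.0.16 (R 4.3.3, glmQLFit and glmQLFTest, TMM factors of 0.968 to 1.04, no covariates), with Benjamini-Hochberg adjustment and a threshold of 0.01. CPM use full library totals and TMM factors. The test was tested on simulated data. MtnB was the 1 gene compared by an exact permutation test. Symbols came from an annotation of release 6 (BDGP6), which gave one for 13158 IDs and none for 1193 and was used only for names and neighbours. P-values measure the spread between pools of flies. Intervals on counts cover counting error only.

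Named genes were the 9 genes, further transferrins, ferritins and metallothioneins, every called gene and the 2 uncalled genes of highest CPM in each metal list, and the 3 most similar genes of each called gene, of which 1 for MtnD is not reported here. The genes and lists were chosen with earlier results of these data known. Alternatives were edgeR with DESeq2 size factors, DESeq2 1.42.0, limma-voom (limma 3.58.1), other filters and thresholds, limma on log2(TPM + 0.5) and log2(TPM + 1), each library left out, and the column number as a block. Promoter motifs and sequences were not analysed here.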

Additional observations from a re-analysis of the deposited data

Results flagged for a closer look

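In 3 of 18 sets of 5 libraries, each set being 1 gene in 1 group, the highest or lowest library stood apart from the rest by Dixon's ratio, above its 95% critical value of 0.71. For normally distributed values chance gives about 1 in 20 such sets. That rate need not hold for MtnB and MtnC, whose counts lie at or near the lowest count of the table. MtnC was at 0.495 CPM in injured library 5, where the other injured libraries were at 0.148 to 0.193 CPM, a gap of 2 counts. Tsf3 was at 5.14 CPM in uninjured library 3, where the other uninjured libraries were at 7.80 to 8.85 CPM. MtnB was at 0.867 CPM in uninjured library 5, where the other uninjured libraries were at 0.148 to 0.340 CPM.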

How the results depend on the processing

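Tsf3, MtnD, Mvl and MtnA kept their direction and their call under every alternative run. For MtnA the adjusted p came as high as 0.00993, with limma on log2(TPM + 0.5). Tsf1 and Fer2LCH kept their direction without a call. Fer1HCH, never called, turned to -0.0193 with limma on log2(TPM + 0.5) and log2(TPM + 1), and ran from -0.0193 to 0.0726 as each library was left out, negative without injured library 1. MtnB turned to -0.0116 on the deposited TPM and ran from -0.0438 to 0.136 CPM as each library was left out. The column number was not taken to pair libraries, since pairs 1 and 4 had deviation correlations of -0.14 and -0.127, although the other 3 were above 0.1 and correlated best with their own number. With it as a replicate block MtnC passed (-2.01, adjusted p = 0.00513), so that 2 genes were called lower, as also at an adjusted p of 0.05. MtnC ran from -2.42 to -1.70 as each library was left out, with 1 to 2 genes called lower, and was not tested under edgeR's filterByExpr. Over all genes, 464 and 466 were higher with limma at 0.5 and 1, and 1165 were higher and 1073 lower at 0.05. Leaving out libraries gave 532 to 873 higher and 442 to 689 lower. Higher iron genes and higher zinc transporters were 1 each with limma on either log2(TPM) scale and with the block (mfrn lost at 0.0131 and ZnT86D at 0.0264), and each 1 to 2 without single libraries, with 3 zinc transporters higher at 0.05. Copper genes were 1 higher at 0.05, and 2 lower with DESeq2 size factors, DESeq2 and filterByExpr, 0 without a filter, 3 with the block and at 0.05, and 0 to 2 without single libraries. Lower zinc transporters were 1 with DESeq2, 2 with the block, 3 at 0.05 and 0 to 1 without single libraries. MtnB and MtnC, at 5 or fewer and 10 or fewer counts per library, are limited by depth.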
